A study of Mus musculus with 2 samples.

Results

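Measurements of 10 genes known from the choroid plexus epithelium are described here in single-cell RNA sequencing data from the adult mouse dentate gyrus (DG). The genes are Atp1b1, Slc12a2, Slc4a5, Kcnj13, Clic6, Aqp1, Folr1, Otx2, Sostdc1 and Calml4, and they are 10 of the 32285 genes in the deposited tables. They were chosen by name because their values in these same cells were already known, in particular their levels in the cluster of cells numbered 9 and their UMIs (unique molecular identifiers, each standing for 1 captured RNA molecule) in the cells outside it. Their values are therefore a description, and no test was made on them.

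The study asked what neural stem cells (NSCs) lose when they no longer make VEGF. Adult mice of both groups carried NestinCreERT2, a tamoxifen (TAM)-activated Cre driven by the Nestin promoter, together with ROSA-STOP-EYFP, a reporter that Cre switches on, and both groups received TAM. WT mice had the genotype NestinCreERT2;VEGFWT/WT;ROSA-STOP-EYFP, and iKD mice, which the sample label calls KO, had NestinCreERT2;VEGFfloxed;ROSA-STOP-EYFP. The DGs of 5 mice of each genotype were pooled 21 d after TAM and sorted for EYFP+ cells, so there was 1 library of 5 mice for each genotype. The 5543 WT cells had a median of 8051 UMIs and the 5261 iKD cells a median of 7080. Since each genotype has 1 library, a difference between the genotypes cannot be told apart from a difference between these libraries or dissections. Parentheses hold 95% intervals, the exact Poisson one for summed UMIs and the exact binomial one for a share, which cover counting error only.

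The choroid plexus is a sheet of epithelium folded around vessels within the brain ventricles, and it makes most of the cerebrospinal fluid (CSF). Its cells move sodium, chloride and bicarbonate from blood to ventricle through pumps, cotransporters and channels, and water follows through aquaporin. They also carry nutrients such as folate into the CSF and secrete large amounts of transthyretin, the carrier of thyroid hormone and retinol encoded by Ttr. The epithelium arises from the dorsal midline of the neural tube, where the homeodomain factor Otx2 is needed for its development. The choroid plexus of the lateral ventricle lies beside the hippocampus, of which the DG is a part.

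The deposited tables assign the cells to 12 clusters, and cluster 9, named Astrocytes, holds 134 cells, 4 from the WT library and 130 from the iKD library. The astrocyte markers did not match this name. Of 7 astrocyte markers, Gja1 and Gjb6 had 0 UMIs in cluster 9 and Aqp4 had 1, and 1 of the 7, Aldh1l1, was at least 2-fold above its highest level in any other cluster. Of 10 further markers of choroid plexus epithelium, 9 were at least 2-fold above every other cluster, from Ttr at 1019 counts per 10,000 UMIs down to Htr2c at 0.539, and Trpm3 was the exception. Of all 22369 genes with a UMI, 9.01% passed this limit. This list and the other marker lists below were chosen with earlier results of these data known. Their counts beside that share are therefore a description and not a test. The cells are called cluster 9 below. The names of the other clusters, such as qNSC1, NSPCs and NB, refer to the neural lineage, but a list of 10 microglia genes summed to a median of 419 counts per 10,000 UMIs in the WT cells outside cluster 9 and to 413 in the iKD cells. The sum was at or above 50 in 5528 of the 5539 WT cells and 5117 of the 5131 iKD cells there. These names are used only as deposited. Vegfa, the targeted gene, had 111 UMIs in the WT cells outside cluster 9 and 55 in the iKD cells. The ratio of its levels was 0.611 (0.434 to 0.852), with a UMI in 1.53% of those WT cells and 0.974% of those iKD cells. The paper states that Vegfa lay too near the detection floor to be compared between genotypes, so the ratio is not read as a measure of the knockdown. In cluster 9, Vegfa had 7 UMIs, all of them in iKD cells.

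Sequences upstream of the transcription start are given for 4 of the genes, since the 10 genes were chosen together and Otx2 among them is itself a DNA-binding factor. They are the 250 bases before the start in RefSeq's annotation of GRCm38.p6, read 5′ to 3′ on the strand of the gene. RefSeq windows were at hand for 6 of the 10 genes, and the 4 windows shown, 1 per gene, are those that do not overlap an annotated exon. The regions are chr1:87394730-87394979 on the minus strand for Kcnj13, chr14:48667645-48667894 on the minus strand for Otx2, chr6:55336049-55336298 on the plus strand for Aqp1 and chr1:164458356-164458605 on the minus strand for Atp1b1. Capitals mark matches, on either strand, to TAATCC (the site preferred by Otx2 and its relatives), to its core GATTA, which overlaps it on the other strand, or to the TATA box TATAAA.
Kcnj13: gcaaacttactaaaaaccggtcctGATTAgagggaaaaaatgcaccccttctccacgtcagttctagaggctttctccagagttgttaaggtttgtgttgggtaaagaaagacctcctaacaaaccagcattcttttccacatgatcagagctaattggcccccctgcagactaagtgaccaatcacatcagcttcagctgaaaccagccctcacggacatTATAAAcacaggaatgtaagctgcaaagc
Otx2: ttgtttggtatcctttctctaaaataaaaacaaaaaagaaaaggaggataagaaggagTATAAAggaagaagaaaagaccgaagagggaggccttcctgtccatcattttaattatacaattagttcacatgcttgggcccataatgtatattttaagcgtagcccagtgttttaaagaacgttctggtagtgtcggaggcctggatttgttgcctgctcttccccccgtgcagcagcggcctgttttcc
Aqp1: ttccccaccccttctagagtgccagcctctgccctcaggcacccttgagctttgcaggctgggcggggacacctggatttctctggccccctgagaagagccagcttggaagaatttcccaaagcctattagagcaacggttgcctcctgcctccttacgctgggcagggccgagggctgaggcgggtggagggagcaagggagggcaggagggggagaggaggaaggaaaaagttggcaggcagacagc
Atp1b1: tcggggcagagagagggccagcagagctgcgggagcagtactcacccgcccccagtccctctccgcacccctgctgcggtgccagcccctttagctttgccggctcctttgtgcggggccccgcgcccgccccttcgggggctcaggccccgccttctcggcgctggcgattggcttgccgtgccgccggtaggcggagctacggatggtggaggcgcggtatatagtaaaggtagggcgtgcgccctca
Kcnj13 held GATTA from base 25 and TATAAA from base 222, close to the start, and Otx2 held TATAAA from base 59. Aqp1 and Atp1b1 held none of the 3 motifs. TAATCC was in none of these 4 windows. RefSeq lists 4 starts for Otx2, and the window before another of them, chr14:48665110-48665359, which overlaps an exon and is not shown, held TAATCC. Over all 32851 RefSeq windows of this length TAATCC was in 6.25%, GATTA in 19.8% and TATAAA in 12.4%. The windows differed in base composition, with a GC content of 42.0% in Otx2, 45.2% in Kcnj13, 62.0% in Aqp1 and 70.4% in Atp1b1, against a median of 52.4% over all windows. A match in these letters is a description and does not show a bound site.

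Several of the genes overlap another gene, by GENCODE positions on GRCm38. Folr1 (chromosome 7, 101858331 to 101870788) overlaps Anapc15 on the opposite strand, Clic6 (chromosome 16, 92485736 to 92541243) overlaps 2410124H12Rik on the same strand, and Calml4 (chromosome 9, 62858080 to 62875921) overlaps Gm10653 on the opposite strand. Otx2 (chromosome 14, 48657677 to 48673819) overlaps Otx2os1 on the opposite strand and Gm49154 on its own. Kcnj13 (chromosome 1, 87386363 to 87394729) lies inside Gigyf2, and Atp1b1 (chromosome 1, 164437109 to 164458355) overlaps Nme7, both on the opposite strand. Reads of overlapping genes can be given to either where strand is not used, and the strand setting of the count is not given in the sources used here. Aqp1, Slc4a5, Slc12a2 and Sostdc1 overlap no other gene.

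In cluster 9, 7 of the 10 genes had a UMI in more than 50% of cells. Levels are counts per 10,000 UMIs of a cell, averaged over cells, and since the library preparation counts the 3′ end of each molecule once, it is not scaled by transcript length. By this measure the order was Calml4, Folr1, Sostdc1, Clic6, Kcnj13, Otx2, Atp1b1, Slc12a2, Slc4a5 and Aqp1. The counting intervals of summed UMIs separated Calml4 from Folr1, Kcnj13 from Otx2 and Atp1b1 from Slc12a2, and every other pair of neighbours in this order overlapped. For 9 of the 10 genes the level was at least 2-fold above the highest of the other 11 clusters, and Slc12a2 was the exception. The share over all genes was 9.01%, as above, and since the 10 genes were selected on this contrast nothing is read from their count.

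Ion transport came first by role. Atp1b1 encodes the beta subunit of the sodium-potassium pump that drives fluid secretion, and it had 262 UMIs in cluster 9 (231 to 296), a level of 2.60 and a UMI in 64.2% of cells (55.4 to 72.3). Kcnj13, the inward rectifier Kir7.1 through which potassium taken up by the pump leaves again, had 348 UMIs (312 to 387), a level of 3.74 and a share of 76.1% (68.0 to 83.1). Its level in single cells ran from 0 to 29.1 with a median of 2.43, so that a few cells lay far above the rest. Clic6, of the chloride intracellular channel family, had 375 UMIs (338 to 415), a level of 3.81 and a share of 82.1% (74.5 to 88.2).

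Slc4a5 and Slc12a2 were sparse in the same cells. Slc4a5, an electrogenic sodium bicarbonate cotransporter, had 29 UMIs (19.4 to 41.6), a level of 0.310 and a UMI in 17.9% of cells (11.8 to 25.5). Slc12a2, the sodium-potassium-chloride cotransporter NKCC1, had 55 UMIs (41.4 to 71.6), a level of 0.607 and a UMI in 30.6% of cells (22.9 to 39.1). That share was below the 54.5% of WT cells and the 48.4% of iKD cells that had a Slc12a2 UMI outside cluster 9, and the level in cluster 9 was 0.334 of that in qNSC1, the highest of the other clusters. Aqp1, the water channel of the ventricle-facing membrane, was the lowest of the 10 with 20 UMIs (12.2 to 30.9), a level of 0.223 and a UMI in 14.2% of cells (8.76 to 21.3). Most cells of cluster 9 had no UMI of these 3 genes, and the median over cells was 0 for each.

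Folr1 encodes the folate receptor that carries folate across the epithelium. It had 425 UMIs in cluster 9 (386 to 467), a level of 4.39 and a UMI in 79.9% of cells (72.1 to 86.3), with a median over cells of 3.30 and a highest value of 23.1. Otx2, the transcription factor of choroid plexus fate, had 274 UMIs (243 to 308), a level of 2.76 and a UMI in 73.9% of cells (65.6 to 81.1). Sostdc1, a secreted antagonist of BMP and Wnt signals, stood at 4.31 with 416 UMIs (377 to 458) and a share of 77.6% (69.6 to 84.4). Calml4, a calmodulin-like protein of the microvillus-bearing surface, was by far the most abundant. It had 1300 UMIs (1230 to 1373), a level of 12.99, a median over cells of 12.3 and a UMI in 93.3% of cells (87.6 to 96.9).

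**Figure D1:**
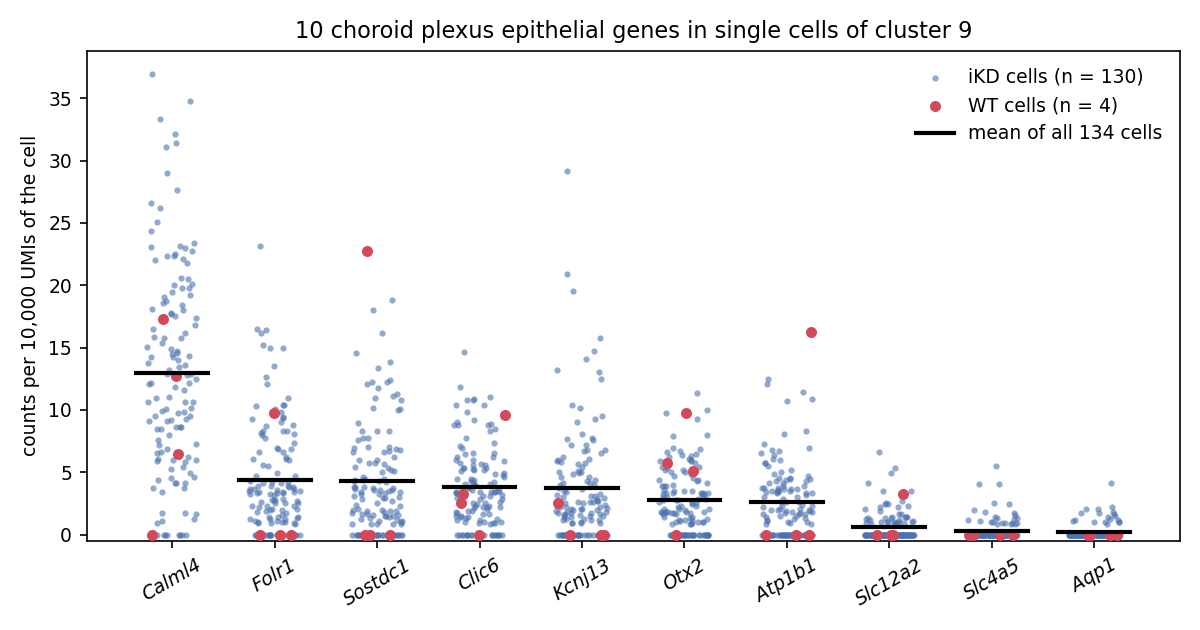
Each point is 1 cell of cluster 9, plotted by gene (x axis) and by counts per 10,000 UMIs of that cell (y axis), with the 4 WT cells as large red points, the 130 iKD cells as small blue points and the mean over all 134 cells as a black bar. Calml4 stood highest at a mean of 12.99, 6 genes lay between 2.60 and 4.39, and Slc12a2, Slc4a5 and Aqp1 stood below 1.

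Shares were lower when every cell was thinned to 4500 UMIs, which kept 108 of the 134 cells. After thinning, a UMI was present in 89.8% of cells for Calml4 and in 56.5% to 72.2% for Folr1, Clic6, Kcnj13, Sostdc1, Otx2 and Atp1b1. It was present in 22.2% for Slc12a2, 13.0% for Slc4a5 and 10.2% for Aqp1. The thinned Slc12a2 share was again below that of the other clusters, at 38.9% in WT and 36.6% in iKD.

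Most cells of cluster 9 carried many of the 10 genes at once. The largest group was the 39 cells with 7 genes, 22 cells had 8 and 9 cells had 9, while no cell had all 10. Outside cluster 9, no WT cell had more than 2 of the 10 genes while 16 iKD cells had 3 and 1 had 4. Slc12a2, which is common there, is counted among these. Without it, 1 iKD cell and 0 WT cells had 3 or more. Within cluster 9 the genes varied together only weakly from cell to cell. Among the 91 cells with little microglial RNA (below), Pearson's r over the 45 pairs of genes had a median of 0.09 on the natural log scale and ran from -0.22 for Clic6 with Aqp1 to 0.56 for Folr1 with Sostdc1. These cells share their libraries and their counts are sparse, so the values are a description.

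The 4 WT cells of cluster 9 did not look alike. The WT cell with 3075 UMIs had 7 of the 10 genes, with 7 UMIs of Sostdc1, 5 of Atp1b1, 3 of Folr1 and 3 of Otx2, beside 670 of Ttr. The WT cell with 3939 UMIs had 4 of the genes and 94 UMIs of Ttr, and the WT cell with 5193 UMIs had 3 of the genes, among them 9 UMIs of Calml4, and 61 of Ttr. The WT cell with 2247 UMIs had none of the 10 genes and no Ttr, but 51 UMIs of a list of 9 neural stem cell genes, 31 of them of Aldoc, a glycolytic enzyme of astroglia. Thus 3 of the 4 WT cells carried genes of the group. Without the WT cells, the median level of the 10 genes in cluster 9 was 3.25, as it was with them. The libraries share 9 cell barcodes in all, 1 of them in cluster 9.

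RNA of microglia was uneven across cluster 9, and cells with more of it had fewer of the 10 genes. The summed level of the 10 microglia markers ran from 0 to 544 with a median of 6.60, and all 10 markers were detected in the cluster. It was under 50 in 91 cells, which include the 4 WT cells, and at or above 50 in 43 cells, all of them iKD. The limit of 50 was set after the values were seen, and 12 cells lay between 25 and 100. The cells above it had a median of 6638 UMIs, against 8412 in the cells under it, and a median of 5 of the 10 genes against 7.

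Of the 10 genes, 9 stood higher in the cells with little microglial RNA and 1 stood lower. This count was not set beside the same split over all genes, so nothing about these 10 in particular is read from it. Calml4 was at 15.6 in the 91 cells and at 7.42 in the 43 cells, a ratio of 2.10 (1.81 to 2.46), and Otx2 was at 3.29 and 1.66, a ratio of 1.98 (1.43 to 2.79). Folr1 had the smallest ratio of the genes that stood higher, at 4.75 and 3.65, a ratio of 1.30 (1.04 to 1.64). Slc12a2 went the other way, at 0.484 and 0.868, a ratio of 0.557 (0.316 to 0.997), and this is the gene that is abundant outside cluster 9. For Aqp1 the 20 UMIs could not show a difference, with a ratio of 1.51 (0.521 to 5.31). Ttr was at 1173 and 693 in the same sets of cells. Whether the microglial RNA lies in the same cells or came with them was not tested, and no doublet caller was run.

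**Figure D2:**
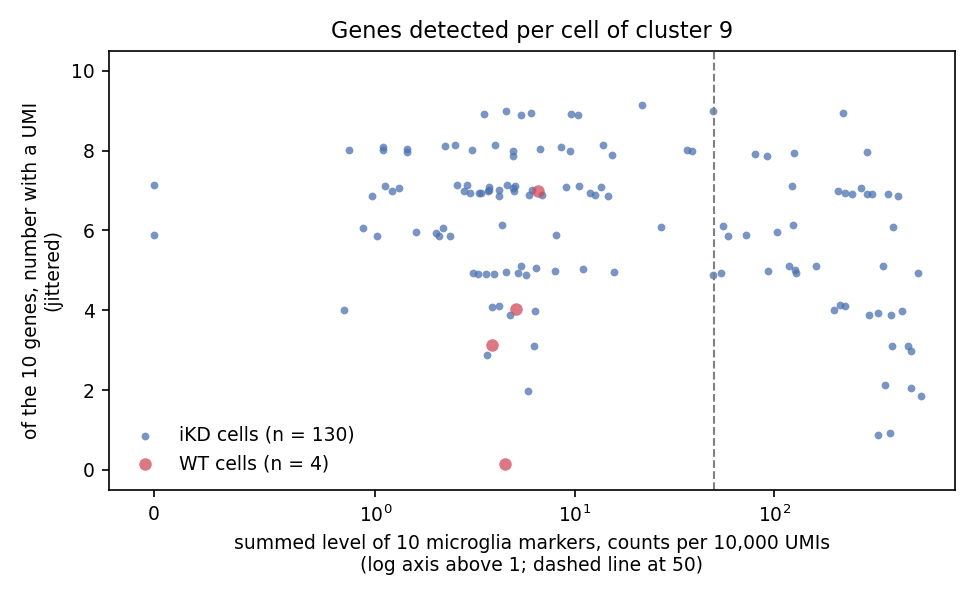
Each point is 1 cell of cluster 9, with the summed level of 10 microglia markers in counts per 10,000 UMIs on the x axis (logarithmic above 1, dashed line at 50) and the number of the 10 choroid plexus genes with a UMI on the y axis, shifted slightly at random to separate points. The 91 cells left of the line had a median of 7 genes and the 43 cells right of it a median of 5, and the 4 WT cells in red all lie to the left.

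Outside cluster 9, 9 of the 10 genes were rare, and most of them were found far more often in iKD than in WT cells. The other 11 clusters held 5539 WT cells, with a median depth of 8052 UMIs, and 5131 iKD cells, with a median depth of 7075. Folr1 had 3 UMIs there in WT, all in 1 cell, and 118 in iKD, in 114 cells. Its share of cells was 0.0181% (0.000457 to 0.101) in WT against 2.22% (1.84 to 2.66) in iKD, and the ratio of levels was 66.4 (22.2 to 326). Sostdc1 had 1 UMI in WT and 65 in iKD, a ratio of 66.8 (11.6 to 2678), and Clic6 had 2 and 56, a ratio of 40.1 (10.6 to 339). The WT counts of 1 to 3 leave the size of these ratios very uncertain.

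Calml4 gave the most UMIs of this kind. It had 13 UMIs in WT and 182 in iKD, a ratio of levels of 18.4 (10.5 to 35.2), and its share of cells was 0.235% (0.125 to 0.401) in WT against 3.35% (2.88 to 3.88) in iKD. Otx2 had 1 and 21, a ratio of 29.3 (4.72 to 1213). Aqp1 had 0 UMIs in WT and 9 in iKD (4.12 to 17.1). Set against a limit of 3 counts over the WT cells, its iKD level was 3.45-fold higher. That value leaves out the counting error of the 9 UMIs and is not a lower bound. By the same limit, the 0 of 5539 WT cells allow up to 0.0542% of cells with an Aqp1 UMI, which bounds detection at this depth and not expression.

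Kcnj13 and Atp1b1 were also present in WT cells. Kcnj13 had 69 UMIs in WT and 115 in iKD, a ratio of levels of 2.04 (1.50 to 2.79), and Atp1b1 had 56 and 68, a ratio of 1.70 (1.18 to 2.47). Both overlap a gene on the other strand, as given above, and so do Folr1, Calml4 and Otx2, with 3, 13 and 1 UMIs in WT. Whether the overlap plays a part was not tested. Slc4a5 had 6 UMIs in each genotype, a ratio of 1.05 (0.280 to 3.92), and at these counts no difference was detectable.

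Slc12a2 was the only one of the 10 genes that stood lower in iKD cells. Its UMIs numbered 5623 in WT (5477 to 5772) and 4234 in iKD (4107 to 4363), at levels of 1.27 and 1.14, and its log2 ratio was -0.16 (-0.21 to -0.10). Of the 11 clusters, 10 had the lower Slc12a2 level in iKD, and aNSCs was the exception. Female-scored cells, those with Xist and no Y-linked UMI, made up 3167 of the WT and 3625 of the iKD cells outside cluster 9. The log2 ratio was -0.19 within the female-scored cells and -0.05 within the male-scored ones, and the difference between them was not tested. Slc12a2 ranged from 0.903 in aNSCs to 2.26 in the undefined cluster in WT, and from 0.758 in the undefined cluster to 1.81 in qNSC1 in iKD, so it was present throughout.

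**Figure D3:**
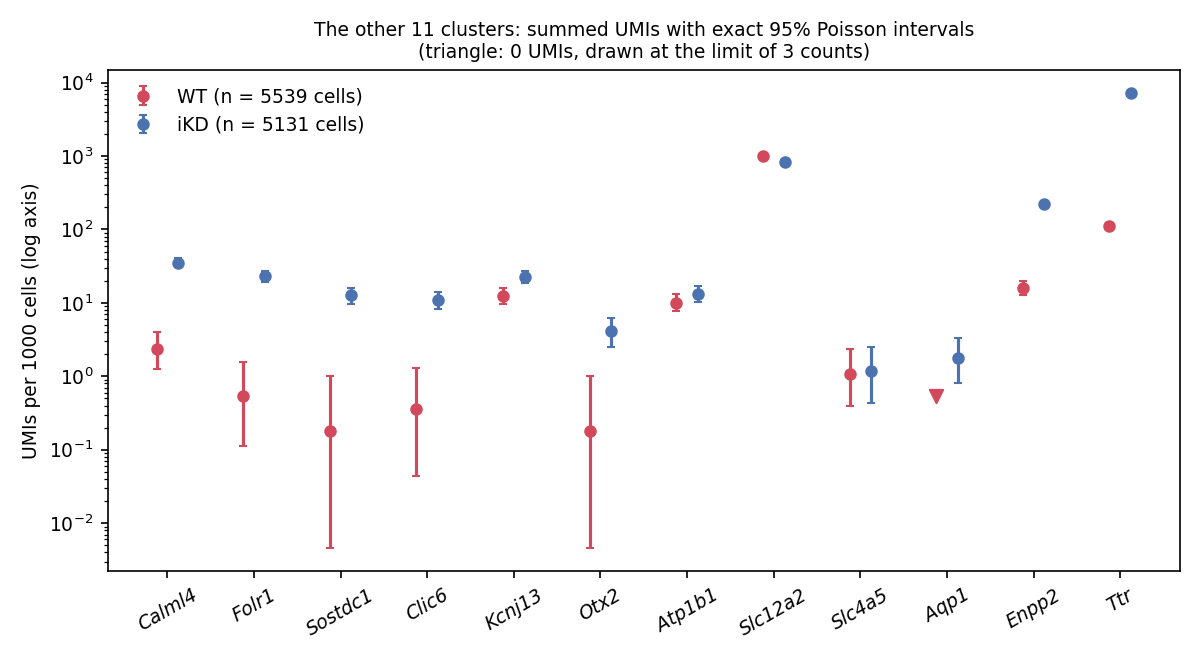
Summed UMIs per 1000 cells of the other 11 clusters (y axis, logarithmic) for each gene (x axis), with WT in red (5539 cells) and iKD in blue (5131 cells), bars for exact 95% Poisson intervals and a triangle for Aqp1 in WT, where 0 UMIs were found. The intervals of WT and iKD lie apart for Calml4, Folr1, Sostdc1, Clic6, Kcnj13 and Otx2, overlap for Atp1b1 and Slc4a5, and Slc12a2 is the highest of the 10 genes in both genotypes.

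On the log2 scale with a pseudocount of 0.01 added to each level, 4 of the 10 genes reached a ratio of at least 1, namely Calml4 at 2.22, Folr1 at 2.05, Sostdc1 at 1.46 and Clic6 at 1.29. All 10 genes had a UMI outside cluster 9, and among all 22180 genes with one, 35 reached this limit, or 0.158%. The genes were selected partly on this contrast, so their count beside that share is not a finding. The pseudocount is larger than the WT level of 7 of the 9 rare genes, which makes the log2 ratios much smaller than the ratios of the levels given above. The median log2 ratio over the 10 genes was 0.67, against 0.00129 over all genes.

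Ttr and Enpp2, which encode secreted proteins and were the most abundant of the choroid plexus markers in cluster 9, showed the same direction. Ttr had 624 UMIs in WT and 36647 in iKD outside cluster 9, a ratio of levels of 67.1 (62.0 to 72.8), and a UMI was found in 9.84% of WT cells and 99.7% of iKD cells. Enpp2 had 89 and 1132, a ratio of 11.6 (9.33 to 14.5). The summed microglia markers had medians of 419 in WT and 413 in iKD, as given above.

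The UMIs outside cluster 9 were spread over nearly all clusters of the iKD library. Without Slc12a2, the other 9 genes together had 27.3 UMIs per 1000 WT cells and 125 per 1000 iKD cells, in 2.55% and 11.4% of cells. Among the iKD cells, the count ran from 90.3 per 1000 in NB to 160 in IN2, except for IN1, whose 9 iKD cells had 0. Among the WT cells, it ran from 0 in the undefined cluster to 51.5 in IN2. These counts are not adjusted for depth, and IN2 and the undefined cluster had the lowest median depths, 3102.5 and 2572.5 UMIs. As summed levels, the iKD values outside IN1 ran from 0.135 in NB to 0.423 in IN2 and 0.474 in the undefined cluster. The last rests on 3 UMIs. The level of Ttr in the iKD cells ran from 9.44 in IN1 to 17.3 in the undefined cluster. Ttr and, at far lower levels, the 9 genes were thus found across nearly all iKD clusters, which differ in their deposited names. Whether free RNA in the suspension gave these UMIs was not tested.

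**Figure D4:**
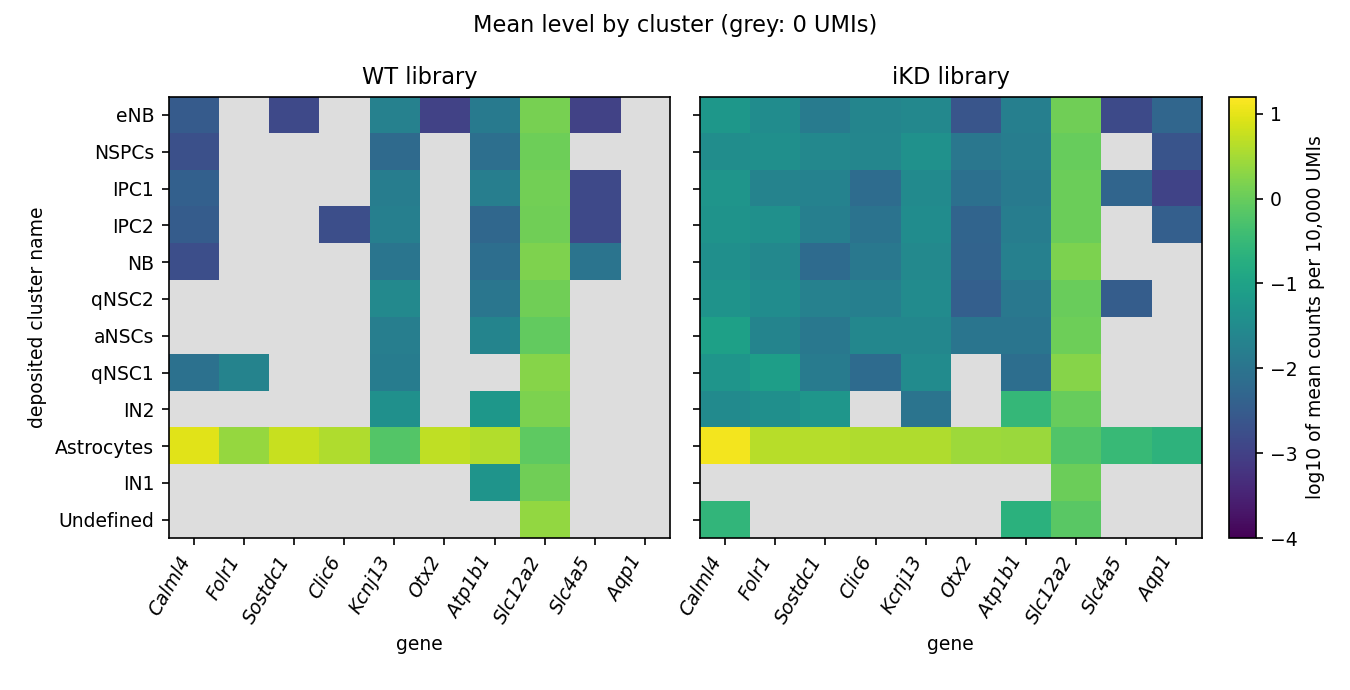
Mean level of each of the 10 genes (columns) in each deposited cluster (rows) of the WT library (left) and the iKD library (right), coloured by log10 of counts per 10,000 UMIs, with grey where 0 UMIs were found. The row named Astrocytes is cluster 9 (4 WT and 130 iKD cells) and is the brightest row for 9 genes in iKD, whereas Slc12a2 is found in every row and is not highest in cluster 9, and fewer grey fields are seen in iKD than in WT.

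Set against cluster 9, the level in the iKD cells outside was at most 1.05% for each of the 9 rare genes. It was 0.759% of the cluster 9 level for Folr1 (0.614 to 0.933), 0.846% for Kcnj13 (0.679 to 1.05) and 0.809% for Atp1b1 (0.610 to 1.06). It was lower for Sostdc1 at 0.425% (0.322 to 0.552), for Clic6 at 0.403% (0.299 to 0.535) and for Calml4 at 0.377% (0.321 to 0.441). Otx2 was lowest at 0.215% (0.131 to 0.335), and the widest interval was that of Aqp1 at 1.05% (0.422 to 2.42). Slc4a5 stood at 0.525% (0.178 to 1.29). The WT cells outside already stood at 0.415% for Kcnj13, 0.475% for Atp1b1 and 0.501% for Slc4a5. For the other rare genes the WT value was at most 0.0205%, that of Calml4. The iKD values are thus not a ranking of the excess over WT. In iKD, Ttr stood at 1.02% (1.01 to 1.03) and Enpp2 at 0.761% (0.712 to 0.812). By counting error alone, the interval of Ttr lay above those of Folr1, Sostdc1, Clic6, Calml4 and Otx2. These intervals leave out the spread between cells, and the Ttr level in cluster 9 had an SD over cells of 898 around 1019. Whether the genes share 1 ratio outside and inside cluster 9 was therefore not tested.

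The makeup of the 9 genes' UMIs differed between the places where they were found. Otx2 made up 7.94% of them in cluster 9 (7.06 to 8.90) and 3.28% in the iKD cells outside (2.04 to 4.97), and Calml4 made up 37.7% (36.1 to 39.3) and 28.4% (25.0 to 32.1). Kcnj13 and Folr1 went the other way, Kcnj13 at 10.1% (9.10 to 11.1) and 18.0% (15.1 to 21.2), and Folr1 at 12.3% (11.2 to 13.5) and 18.4% (15.5 to 21.7). In the WT cells outside, Kcnj13 gave 45.7% of the 151 UMIs (37.6 to 54.0) and Atp1b1 37.1% (29.4 to 45.3), so most of what was found there belonged to these 2 genes. Atp1b1 was highest in IN2, where it had 8 UMIs in 194 WT cells and 11 in 94 iKD cells, and IN2 was also the cluster with the highest level of the neuronal genes Syt1, Snap25 and Rbfox3, whose part in this was not tested.

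**Figure D5:**
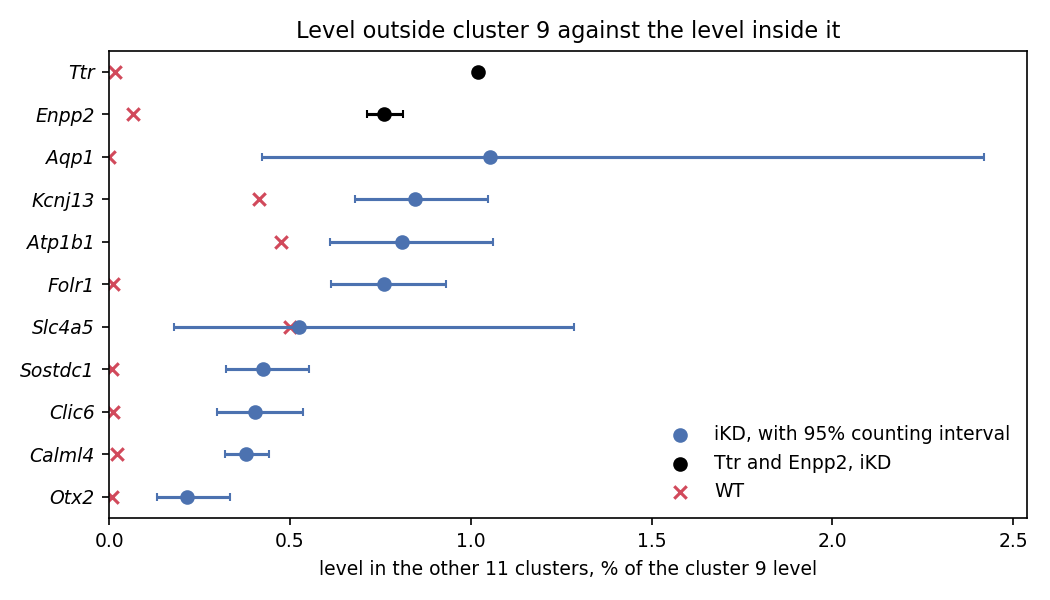
Level in the other 11 clusters as a percentage of the level in cluster 9 (x axis) for 9 of the 10 genes and for Ttr and Enpp2 (y axis), with iKD as points with 95% counting intervals and WT as red crosses. In iKD, Otx2 is lowest at 0.215% and Ttr stands at 1.02%, and in WT only Kcnj13, Atp1b1 and Slc4a5 lie clear of 0. Slc12a2, at 188% in iKD, is off the scale and not drawn.

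Other genes of fluid secretion and acid-base transport were mixed in cluster 9. Of a list of 20, 7 were at least 2-fold above their highest level in any other cluster, 9 were at least 2-fold below it, and 3 had 0 UMIs, namely Kcnq1, Clcn2 and Slc6a13. The highest was Car2, the cytosolic carbonic anhydrase that makes bicarbonate, at a level of 8.69 and a share of 90.3% of cells (84.0 to 94.7). Kcne2, a potassium channel subunit of the epithelium, stood at 1.20 and Car14, a membrane-bound carbonic anhydrase, at 0.719. The sodium bicarbonate cotransporter Slc4a7 was among the genes that were lower in cluster 9, at 0.234 against 1.88 in IN2. Over all genes, 9.01% were at least 2-fold above the other clusters.

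Beside Otx2, several transcription factors of the epithelium or its midline origin were found. Of a list of 10, 7 were at least 2-fold above every other cluster, where 9.01% of all genes were, and 2 of the 7 were sparse, Otx1 with 5 UMIs and Rfx2 with 8. Msx1, a homeobox factor of the dorsal midline, was the most abundant at a level of 4.26 and a share of 77.6% of cells (69.6 to 84.4), which was above Otx2. Zic1 stood at 0.528, Foxj1, the master factor of motile cilia, at 0.527, Gmnc, which acts upstream of it, at 0.256, and Lmx1a at 0.103. Foxp2 had 0 UMIs, and Meis1 and Rfx3 were lower than in other clusters. Outside cluster 9 in iKD, these 7 stood between 0.154% of the cluster 9 level, for Gmnc, and 8.43%, for Rfx2.

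The genes whose pattern over clusters and genotypes was most like that of the 10 genes were sought among the 3151 other genes that reached 0.5 in cluster 9. Likeness was Pearson's r with the mean profile of the 10, on the log2 scale, over the 23 groups of at least 9 cells. The nearest were Wdr86 at 0.97, Gpx8, Gm29538, Spint2, Gm19935, Kcne2, Rsph1, Prlr, Ooep and Ociad2, the last also at 0.97. Of these, Prlr, the prolactin receptor, stood at 2.35 in cluster 9, Rsph1, a radial spoke protein of cilia, at 2.83 and Spint2, a protease inhibitor of epithelia, at 2.19, each with at most 3 UMIs in WT cells outside. Of the 10 genes themselves, 8 had an r of 0.92 to 0.98 with the mean that includes them, Atp1b1 had 0.78 and Slc12a2 had -0.56. Cluster 9 alone sets most of these values, because the profile is high there and near 0 elsewhere.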

How the data were processed

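The data were 1 WT and 1 iKD single-cell library of EYFP+ DG cells, each from 5 pooled mice. Per the labels, reads were demultiplexed, aligned and deduplicated with CellRanger 7.0.1, and cells were clustered with Seurat 4.1.1. The submitters' processing notes name the build GRCh38 beside mouse gene symbols, so the build is not settled here. The authors deposited natural log values in 12 tables, 1 for each cluster, in which a cell's UMIs were scaled to 10,000 and 1 was added before the log. The UMI counts were recovered from them, and 100% of the 32261786 values above 0 came out whole within 1e-06. All cells were used with the clusters as deposited. No doublet caller was run. The methods limit gene number per cell to remove multiplets and damaged cells. Cells with as few as 1471 UMIs were present, which is below the lower gene limit given there, so that filter does not fully describe these cells.

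The 10 genes and the marker lists were chosen with earlier results of these data known. Genes named are the 10, those of 11 lists (choroid plexus epithelium, fluid secretion and acid-base transport, epithelial transcription factors, epithelial junctions, ependyma and motile cilia, microglia, neural stem cells, astrocytes, endothelium, stroma and mural cells, granule neurons), Vegfa and the 10 genes with the most similar profile. Each genotype has 1 library, so no p-value was computed. The values of 2 genes of the fluid secretion list are not reported here. A call is a log2 ratio of at least 1 with a pseudocount of 0.01. Ratios of levels carry an exact binomial interval, taken from the summed counts of both sides. A count of 0 was given a limit of 3 counts.

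The alternatives were summed UMIs, pseudocounts of 0.001 and 1, a denominator without Ttr and mitochondrial genes, at least 2 UMIs, thinning to 4500 UMIs, leaving out the undefined cluster or the 1% of cells highest in Ttr, female-scored or male-scored cells, iKD cells alone and genes with at least 20 UMIs. Cluster 9 cells with little microglial RNA, and the omission of Slc12a2, were added after the data were seen. Gene positions are from GENCODE release 21 on GRCm38 (31424 symbols matched) and upstream sequences from RefSeq. The steps were tested on simulated data. The genes changed there had levels well above those of the rare genes outside cluster 9, so ratios at such low levels were not tested. Python 3.11.15, numpy 2.4.6, scipy 1.17.1, pandas 2.3.3 and matplotlib 3.10.9 were used.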

Additional observations from a re-analysis of the deposited data

How the results depend on the processing

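No paired analysis was possible because each genotype has 1 library. The number of the 10 genes with a log2 ratio of iKD over WT of at least 1 outside cluster 9 was 4, and it was 0 with a pseudocount of 1 and 6 with a pseudocount of 0.001. The median log2 ratio, 0.67, was 2.14 with a pseudocount of 0.001 and 0.02 with 1, since the levels lie near or below these values. The median level of the 10 genes in cluster 9 was 3.25. It was 3.77 with a denominator that left out Ttr and mitochondrial genes, 3.72 in the cells with little microglial RNA and 3.74 without Slc12a2, the last 2 chosen after seeing the data. The median share of cluster 9 cells with a UMI was 75.0%, and it was 53.0% when 2 UMIs were asked for and 60.2% after thinning to 4500 UMIs. This thinning was a random draw separate from the one behind the thinned shares by gene given above. The median of those shares is therefore not 60.2%, and the spread over draws was not measured. No value reversed its direction. Of 72 ratios of the genes other than Aqp1 under the alternatives, 65 lay within the counting interval of the reported value and 7 outside it, 6 of them under another pseudocount and 1 in male-scored cells, where Slc12a2 stood at -0.05. The interval is the counting error of the raw UMIs set around the ratio with pseudocount, and it is very wide for the sparse genes. Sostdc1, at 1.46 (-1.07 to 6.79), counted as within at 3.92 under a pseudocount of 0.001. Lying within it therefore does not show that a ratio is stable. Aqp1, with 0 UMIs in WT, has no such interval, and its log2 ratio of 0.30 was 1.74 with a pseudocount of 0.001. Slc12a2 was below 0 under 8 of 8 alternatives. With 4 WT cells in cluster 9 and at most 3 UMIs of Folr1, Clic6, Otx2, Aqp1 and Sostdc1 in the WT cells outside it, depth limits every ratio of these 5 genes, and the missing replicates limit all of them.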

Other observations

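Cluster 9 also carried genes of motile cilia and of the epithelial skeleton. Of a list of 10 ependymal and motile cilia genes, 8 were at least 2-fold above their highest level in any other cluster, where 9.01% of all genes were. Sparse among the 8 were Hydin with 2 UMIs and Dnah11 with 5. Rsph1 stood at 2.83 counts per 10,000 UMIs and a share of 74.6% of cells (66.4 to 81.7), Dynlrb2, a dynein light chain, at 1.55 and Pifo, a protein of the ciliary base, at 1.48, whereas the ependymal markers Ccdc153 and Tmem212 had 0 UMIs. Of a list of 12 epithelial junction and keratin genes, 7 passed the same limit. The keratins Krt18, at 5.02 and a share of 81.3% of cells (73.7 to 87.5), and Krt8, at 1.81, were abundant, while the claudins Cldn1, Cldn2, Cldn3 and Cldn9, which seal the epithelium, were between 0.0653 and 0.140, and Epcam had 0 UMIs. Outside cluster 9 in iKD cells, Krt18 stood at 0.298% of its cluster 9 level, Krt8 at 0.218% and Rsph1 at 0.206%, and the choroid plexus markers other than Trpm3 ran from 0.358% for Kl to 1.27% for Htr2c.

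Of 9 neural stem cell markers, 5 were at least 2-fold above every other cluster, where 9.01% of all genes were. The highest were Hopx at 2.17, Aldoc at 1.57, with 31 of its 84 UMIs in 1 WT cell, and the transcription factor Sox9 at 1.52, while Nes, whose promoter drives the Cre of this model, had 0 of 134 cells with a UMI, which, by the limit of 3 counts, allows up to 2.24% of cells with a UMI and does not bound expression. All 6 endothelial markers were at or near 0 in cluster 9, with 5 of 6 at 0 UMIs and 3 UMIs of Pecam1. Of 8 stromal and mural markers 6 were at 0, and the other 2, Col1a2 with 4 UMIs and Pdgfra with 6, were above the other clusters at very low levels. Of 5 granule neuron markers 3 were at 0. Klotho (Kl), at 3.73 with a UMI in 79.9% of cells, Igfbp2 at 6.66 and Igf2 at 3.30 were further secreted or surface products of the epithelium found in cluster 9. Trpm3, an ion channel gene, was the only one of the 10 choroid plexus markers that missed the 2-fold limit, at 3.07 in cluster 9 against 1.56 in IN2. It was also the only one of the 10 that was lower in iKD than in WT cells outside cluster 9, with 316 UMIs in WT and 146 in iKD.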
